A study of Mus musculus with 24 samples.

Results

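The regions described here are acetylated stretches of chromatin in NIH3T3 cells that were listed among the better-ranked H3K27ac peaks of control cells and had no H3K27ac peak nearby after treatment with purmorphamine. They were selected on measured values. A region was kept when its rank in the control list was at most 20000 and when no peak of the purmorphamine list lay within 1 kb, on chromosomes 1 to 19 and X. This gave 221 control-only regions of the 19989 control peaks with such a rank, or 1.11%. Of all 90969 control peaks on these chromosomes, 20.4% had no purmorphamine peak within 1 kb. Both shares come from the comparison that chose the regions, so they describe the selection only.

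NIH3T3 is an established mouse embryonic fibroblast line that responds to Hedgehog ligands and agonists. Cells in low serum were treated for 48 h with 400 nM purmorphamine, a small molecule that activates the Hedgehog receptor component Smoothened, or with DMSO as the control, and the labels name LIF in both groups. Chromatin from 1000000 cells per immunoprecipitation was used, and each group had 2 immunoprecipitation libraries and 2 input libraries. The limb lists used for comparison came from forelimb buds of Swiss Webster embryos at E10.5 with 32 to 35 somites, either WT or Shh-/-, which lack the ligand Sonic hedgehog throughout the embryo. The labels call the controls wild type, but the study's methods describe them as littermates that included heterozygotes, and WT is used here in that sense. About 400000 cells pooled from several embryos went into each limb immunoprecipitation, and the H3K27ac antibody was not the one used for NIH3T3. Each of the 7 peak lists was called on both replicates together. Peak lists of single replicates were not analysed here, so no difference could be set against replicate spread and no test was run. The lists hold no read counts. The study's methods give a minimum depth for all samples, but the depth of each library is unknown. Intervals given below are 95% Wilson intervals that cover counting error only, and neighbouring regions are not independent.

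Acetylation of lysine 27 of histone H3 marks active promoters and active enhancers, and its loss at an enhancer usually accompanies loss of enhancer activity. Hedgehog signalling ends at the GLI transcription factors, which are processed into repressors without ligand and act as activators when Smoothened is active. In limb buds the pathway patterns the digits, whereas in fibroblasts it induces a small group of general targets such as Gli1 and Ptch1.

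The sequences of 6 regions are shown, each as 300 bases of the plus strand of GRCm38: the best-ranked region acetylated in limb, the best-ranked regions at the 2 loci with most members, the best-ranked region with a homeodomain match, and both regions that held a GLI match. Capitals mark exact matches on either strand to the AP-1 motif TGANTCA, the homeodomain motif TAATTA, the GLI motif GACCACCCA, the TEAD motif GGAATG and the RUNX motif TGTGGT. The window of Sorcs2 lies at chr5:36373926-36374225, that of Cdkal1 at chr13:29670088-29670387, that of Bnc1 at chr7:82007162-82007461, that of Traf5 at chr1:192072851-192073150, that of Kirrel3 at chr9:34951329-34951628 and that of Ccl11 at chr11:82067576-82067875. The Sorcs2 and Ccl11 windows are centred on the position of the highest enrichment statistic and the others on a motif match, so those matches are there by choice. None of the 6 windows overlaps an annotated exon.
Sorcs2: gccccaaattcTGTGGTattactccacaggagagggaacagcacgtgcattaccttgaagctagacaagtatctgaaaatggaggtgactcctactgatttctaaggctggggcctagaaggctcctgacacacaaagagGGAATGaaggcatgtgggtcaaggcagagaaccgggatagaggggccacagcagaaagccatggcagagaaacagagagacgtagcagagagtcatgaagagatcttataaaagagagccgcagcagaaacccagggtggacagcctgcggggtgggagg
Cdkal1: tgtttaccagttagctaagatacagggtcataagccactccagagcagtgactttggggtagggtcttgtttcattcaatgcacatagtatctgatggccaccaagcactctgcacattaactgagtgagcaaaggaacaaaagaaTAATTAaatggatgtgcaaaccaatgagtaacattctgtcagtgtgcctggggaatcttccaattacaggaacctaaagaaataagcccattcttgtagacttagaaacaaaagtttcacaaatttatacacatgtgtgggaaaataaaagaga
Bnc1: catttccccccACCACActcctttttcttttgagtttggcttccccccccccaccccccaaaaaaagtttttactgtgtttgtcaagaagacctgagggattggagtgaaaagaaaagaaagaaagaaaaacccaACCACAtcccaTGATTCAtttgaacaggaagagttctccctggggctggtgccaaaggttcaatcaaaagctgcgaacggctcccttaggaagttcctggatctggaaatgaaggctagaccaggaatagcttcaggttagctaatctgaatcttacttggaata
Traf5: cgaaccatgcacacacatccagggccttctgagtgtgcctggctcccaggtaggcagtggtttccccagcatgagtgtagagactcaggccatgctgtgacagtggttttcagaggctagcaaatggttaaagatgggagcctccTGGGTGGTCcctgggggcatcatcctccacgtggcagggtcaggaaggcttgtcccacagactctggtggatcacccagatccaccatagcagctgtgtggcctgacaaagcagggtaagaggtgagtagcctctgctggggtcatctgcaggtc
Kirrel3: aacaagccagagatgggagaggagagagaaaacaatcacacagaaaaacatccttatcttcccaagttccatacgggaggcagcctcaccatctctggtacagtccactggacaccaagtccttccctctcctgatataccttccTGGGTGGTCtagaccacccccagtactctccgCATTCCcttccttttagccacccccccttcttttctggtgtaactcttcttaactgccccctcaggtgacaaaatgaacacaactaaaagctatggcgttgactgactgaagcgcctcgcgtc
Ccl11: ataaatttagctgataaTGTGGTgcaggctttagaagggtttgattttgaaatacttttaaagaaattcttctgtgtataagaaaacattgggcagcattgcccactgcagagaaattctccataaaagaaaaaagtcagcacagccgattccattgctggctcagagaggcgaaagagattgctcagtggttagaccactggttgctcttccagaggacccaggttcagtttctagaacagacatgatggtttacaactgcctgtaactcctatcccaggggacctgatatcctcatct
The Traf5 and Kirrel3 windows each hold 1 GLI match, at bases 146 to 154. Over all 19989 control peaks of these ranks, 300 bases around the highest statistic held an AP-1 match in 6.86%, a homeodomain match in 4.91%, a GLI match in 0.300%, a TEAD match in 14.2% and a RUNX match in 15.9%.

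The label "strong" held only in part. The ranks of the control-only regions in the control list ran from 4784 to 19886 with a median of 16242. The control list orders peaks by their highest enrichment statistic over input, which ran from 4.84 to 6.12 in these regions with a median of 5.09, and reached 8.59 in the list. Only 2 regions had a rank of at most 5000, 20 ranked from 5001 to 10000, 58 from 10001 to 15000 and 141 from 15001 to 20000. The last band held 63.8% of them. As a share of the control peaks of each band, this was 0.0400%, 0.400%, 1.16% and 2.82%. The highest log2 enrichment over input was 3.62 at the median region, and ran from 3.39 to 4.49. The median control-only region was 850.0 bp wide, and the median of the other control peaks of these ranks was 1400 bp.

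The nearest purmorphamine peak was at a median distance of 12400 bp and at most 985700 bp. A purmorphamine peak lay within 5 kb of 69 regions (31.2%) and within 50 kb of 179 (81.0%). Just inside the distance limit were regions of rank 13911 and 18596, each 1050 bp from a purmorphamine peak, and just outside it were control peaks of rank 14408 and 19940, each at 1000 bp. At the rank limit, the last region inside had rank 19886 and a statistic of 4.84, and the next control-only peak outside had rank 20004 and a statistic of 4.84. Of the other 19768 control peaks of these ranks, 99.1% overlapped a purmorphamine peak directly, and 753 (3.81%) had within 1 kb only purmorphamine peaks from the worse-ranked 50% of that list. Absence from the purmorphamine list means that the enrichment statistic did not reach 3.00, the lowest value listed, or that the authors' other limits were not met. It does not show that acetylation was zero.

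**Figure D1:**
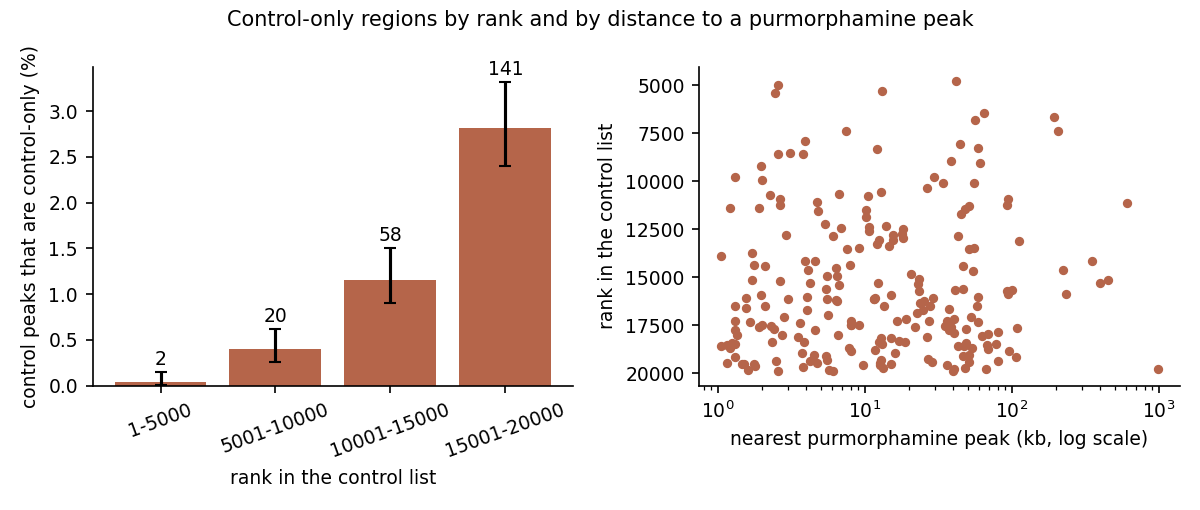
Left, share of control peaks that were control-only in each band of rank (bars, 95% Wilson interval, number of regions above each bar), which rose from 0.0400% in the best band to 2.82% in the last. Right, rank of each of the 221 regions against its distance in kb to the nearest purmorphamine peak on a log axis, with distances from 1050 bp to 985700 bp.

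Control-only regions lay away from promoters. Within 2 kb before to 1 kb after the start of a protein-coding gene were 11 of 221 regions (4.98%, interval 2.80 to 8.69%), against 48.7% of all control peaks of these ranks. Within the last rank band, the share was 5.67% (2.90 to 10.8%) in control-only regions and 37.1% (35.8 to 38.5%) in the other control peaks. The median distance to the nearest protein-coding start was 46545 bp, compared with 2017 bp for the other control peaks and 38683 bp for those of them that were not at promoters. By annotation, 107 regions (48.4%) lay between genes, 92 (41.6%) in introns, 13 (5.88%) touched an exon without a UTR and 9 (4.07%) touched a UTR. The corresponding shares of the other control peaks were 25.3%, 24.1%, 9.76% and 40.9%.

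Each of the 11 regions at promoters was at a different gene. Itgb2, which encodes the beta subunit of leukocyte integrins, had a region of 1550 bp (rank 10769) that lay 48 bp from its start. A region of 1400 bp (rank 16197) lay 38 bp from the start of Ccl7, a monocyte-attracting chemokine. The starts of Cytip, a cytohesin-interacting protein of immune cells, and Cd5, a T cell surface receptor, were near regions of rank 19392 and 17907. Dpt, which encodes the matrix protein dermatopontin, had a region of rank 18116 at 1695 bp from its start and a second, of rank 16127, at 3745 bp. Slc17a8, a vesicular glutamate transporter, and Rgcc, a regulator of the cell cycle, had regions of rank 18711 and 19546. The region of rank 14504 was 611 bp from the start of Lvrn, a membrane aminopeptidase. Prl2c5 and Prl2c3, which encode proliferins, had regions of rank 13537 and 18831, and Vmn1r45, a vomeronasal receptor gene, one of rank 19297. The proliferin and vomeronasal genes have near-identical copies in the genome, so the placement of reads there is uncertain.

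The 20 best-ranked regions were spread over genes of many functions. The best was a region of 1700 bp in an intron of Palld, which encodes the actin-crosslinking protein palladin, with a statistic of 6.12 and a nearest purmorphamine peak at 41800 bp. Sorcs2, a receptor of the sortilin family, held the region of rank 4969 in an intron at chr5:36373350-36374499. Introns of Arhgap22 and Arhgap18 held the regions of rank 5307 and 8552. Sall3, a zinc finger transcription factor of limb and neural development, was the nearest gene to the region of rank 6633, at 633829 bp, and no purmorphamine peak lay within 193450 bp of that region.

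Introns of Cdkal1, a tRNA-modifying enzyme, Rad51b, a recombination protein, C9, the last component of the complement pathway, Traf5, an adaptor of tumour necrosis factor receptors, and Atp10a, a phospholipid flippase, held the regions of rank 6433, 8494, 9028, 9201 and 9789. The region of rank 7872 touched an exon of Phex, an endopeptidase of phosphate balance. Between genes were the regions nearest to Gria1, a subunit of AMPA-type glutamate receptors (rank 6824), Arsj, an arylsulfatase (7356), Gm10750, a predicted gene (7392), Dtl, a substrate receptor of a ubiquitin ligase (8047), and Fmo6, a flavin monooxygenase (8267). The last of the 20 were between genes near Ctsl, the lysosomal protease cathepsin L (8327), Bnc1, the zinc finger protein basonuclin (8595), and Slc35b3, a Golgi transporter of the sulfate donor PAPS (8923). None of these 20 regions was at a promoter.

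Most regions had no second control-only region within 100 kb, but this counts only peaks of rank at most 20000. Within 50 kb, the median region had 6.00 other control peaks of any rank without a purmorphamine peak within 1 kb. Joined where they lay within 100 kb of each other, the 221 regions formed 182 loci, of which 152 held 1 region and 30 held 2 or more, with 69 regions in all. The locus with most members was the chemokine cluster on chromosome 11, where 6 regions between 82015350 and 82068549 had ranks of 11061 to 17989. Of these, 2 lay 9477 bp and 6877 bp from the start of Ccl11, which encodes an eosinophil attractant, 2 lay 38 bp and 1638 bp from the start of Ccl7, and 2 lay 11722 bp and 18772 bp from the start of Ccl2, the main monocyte attractant. With 50 kb on either side, this locus held 57 control peaks that covered 42100 bp and 10 purmorphamine peaks that covered 2300 bp, or 5.46% of the control cover. Of the 57 control peaks, 48 had no purmorphamine peak within 1 kb. The best control peak of the locus had rank 1707 and a statistic of 6.65, whereas the best purmorphamine peak had rank 21813 and a statistic of 4.47. The promoters of Ccl2, Ccl7 and Ccl11 each lay under a control peak and under no purmorphamine peak.

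The locus with the next most members lay upstream of Bnc1, a gene of epithelial and germ cells, and extended towards Sh3gl3, which encodes an endophilin, on chromosome 7. Its 5 regions between 82006650 and 82090099 had ranks of 8595 to 19843, and the best was 4050 bp wide, the widest of all control-only regions. With 50 kb on either side, 89 control peaks covered 108650 bp here, one of them 20050 bp wide, while 37 purmorphamine peaks covered 12450 bp, or 11.5%. The widest purmorphamine peak was 1700 bp. The promoter of Bnc1 kept a peak in both lists. This set the Bnc1 locus apart from the chemokine locus, where no promoter window of the 3 genes had a purmorphamine peak. That contrast depends on the window, which starts 2 kb before a gene. A purmorphamine peak lay just outside it at Ccl2, at -3121 to -2622 bp from the start.

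**Figure D2:**
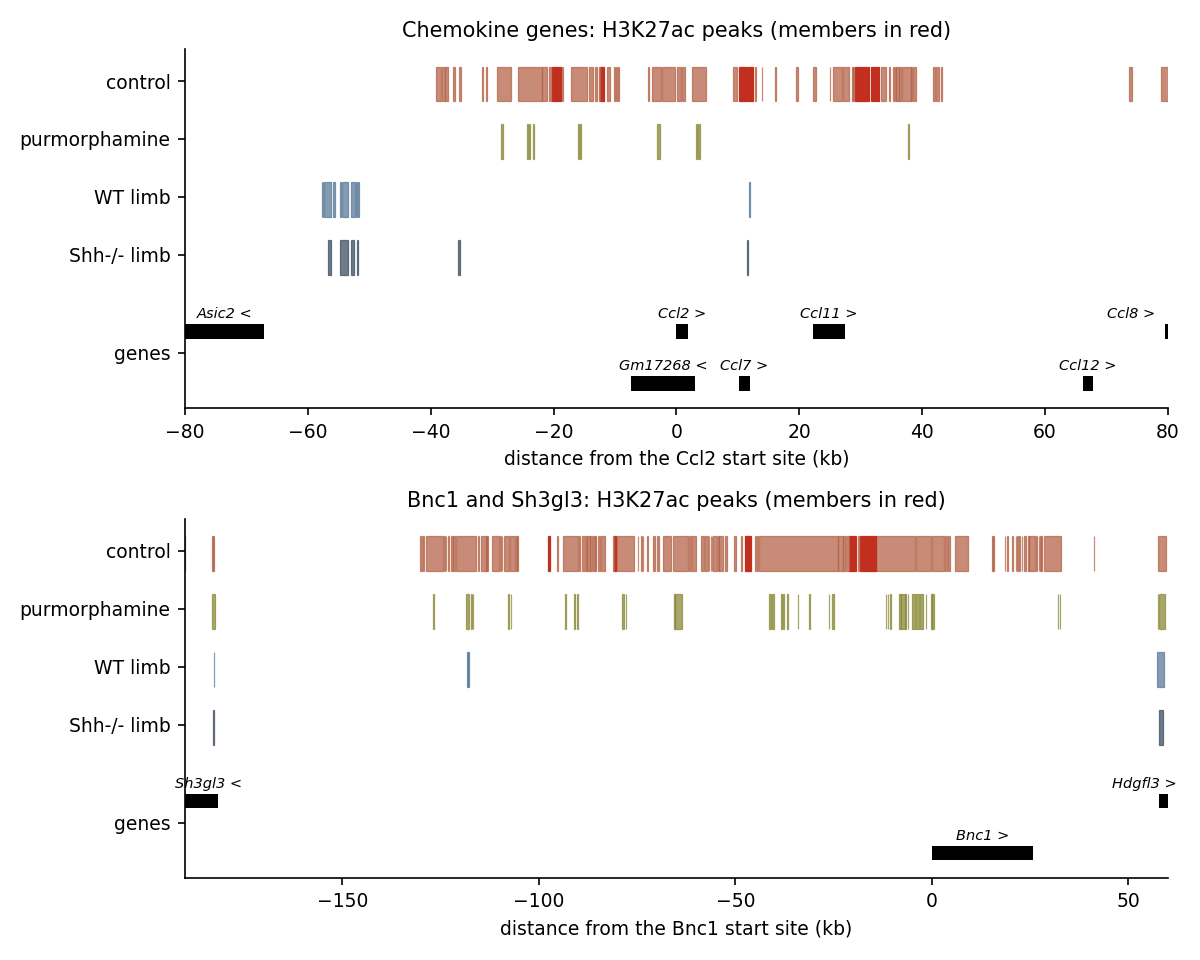
H3K27ac peaks (boxes, with a minimum drawn width) of control and purmorphamine-treated NIH3T3 cells and of WT and Shh-/- limb buds around the start sites of Ccl2 and Bnc1, by distance in kb along the strand of the named gene, with genes as black bars and arrowheads for their direction. The 6 and 5 control-only regions are in red and lie among 57 and 89 control peaks, where the purmorphamine list has 10 and 37.

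At 2 more loci 3 regions lay together. On chromosome 13 between 39288900 and 39297149, at least 328025 bp from the nearest start, that of Slc35b3, 38 control peaks covered 21600 bp and a single purmorphamine peak covered 100.0 bp. On chromosome 5 between 74821400 and 74834999, nearest to Lnx1, a ubiquitin ligase that binds the Notch regulator Numb, 67 control peaks covered 53700 bp and 21 purmorphamine peaks covered 22950 bp, or 42.7%. The best control peak of that locus had rank 169 and had a purmorphamine counterpart. Apart from Bnc1 with 4 regions, the genes nearest to 3 regions were Slc35b3, Lnx1, Kcnma1, which encodes the large-conductance calcium-activated potassium channel, and AI593442, whose product is uncharacterised. The 3 regions nearest to Kcnma1 lay in introns of Lrmda, at 638240 to 784140 bp from the Kcnma1 start.

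Fewer peaks after purmorphamine were also listed around the regions. In the 50 kb on either side of a control-only region, the median number of other control peaks was 11 and of purmorphamine peaks 4.00, and 59.7% of the other control peaks had no purmorphamine peak within 1 kb. Around the other distal control peaks of rank 10001 to 20000 (n = 5735), the medians were 16.0 and 15.0 and the share 18.7%. The bases under purmorphamine peaks came to 24.5% of those under control peaks at the median control-only region and to 81.8% at the median other peak. These values come from the comparison that chose the regions and each window holds the region itself, so they describe the extent of the loss only. No purmorphamine peak lay within 50 kb of 42 regions (19%), among them the regions near Cdkal1, Sall3, Gria1, Rspo2, Tlr4, Nr2f2 and Prl2c5. More bases were covered with purmorphamine than without it around 5 regions, those nearest to Tbc1d1, Filip1l, Trpm4, Rps23 and Dyrk3.

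**Figure D3:**
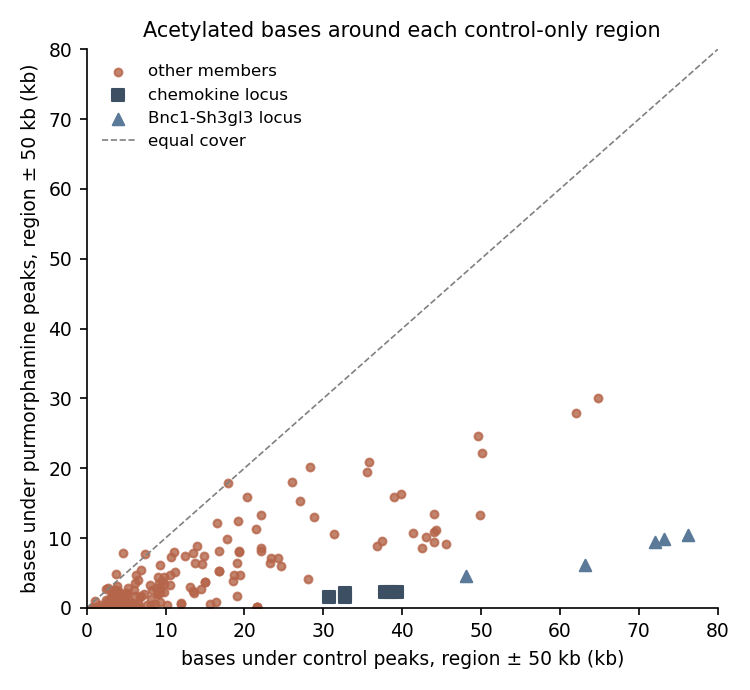
Bases under control peaks (x axis, kb) and under purmorphamine peaks (y axis, kb) in each of the 221 control-only regions with 50 kb on either side, with a dashed line of equal cover. All but 5 points lie below the line, and the chemokine and Bnc1 points (squares and triangles) lie far below it.

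Genes of several signalling pathways were nearest to a control-only region, with at most 4 genes in any list. The 221 regions had 183 nearest protein-coding genes, of the 9478 genes nearest to any control peak of these ranks (1.93%). Of 14 lists of genes, 4 held none: TGF-beta and BMP genes (0 of 35), adipogenic and glucocorticoid genes (0 of 20), skeletal genes (0 of 9) and cell cycle genes (0 of 23). Of the Hedgehog pathway and its targets, 2 of 15 genes had a region, both far from their starts. Gli3, the main GLI repressor, held a region of 400.0 bp (rank 17733) in an intron at 160320 bp from its start, and Osr1, a zinc finger factor of mesoderm, was nearest to a region of 1600 bp (rank 9795) at 104292 bp. Gli1, Ptch1 and Hhip were not among the genes with a region.

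Inflammation and interferon genes had 4 of 34 (11.8%): Ccl2 and Ccl7, Socs1, an inhibitor of cytokine signalling, with a region of rank 12778 at 31087 bp, and Tlr4, the endotoxin receptor, with one of rank 17841 at 105787 bp. Of these, Ccl2 and Ccl7 share the chemokine locus. Limb patterning factors had 3 of 26. Besides Sall3, these were Nr2f2, an orphan nuclear receptor, with a region of rank 15732 at 690294 bp, and Tbx15, a T-box factor of the limb skeleton, with one of rank 13352 in an intron of Wars2 at 50311 bp. Wnt genes had 2 of 27, the receptor gene Fzd8 (rank 15636 at 669264 bp) and Rspo2, which encodes a secreted amplifier of Wnt signalling (rank 16039 at 8174 bp).

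Receptor tyrosine kinase genes had 2 of 47, Met, the receptor for hepatocyte growth factor, with an intronic region of 2650 bp (rank 10700), and Ereg, the EGF receptor ligand epiregulin, with one of rank 19512. Matrix and contractile genes had 2 of 42, Palld and Thbs1, which encodes thrombospondin 1 (rank 13267 at 137327 bp). Palld had a second region of rank 19065. The other lists had 1 gene each: Fosl2, an AP-1 subunit (1 of 11, rank 10551), Rbpj, the DNA-binding effector of Notch (1 of 8, rank 13485), Sema7a, a membrane-anchored semaphorin (1 of 25, rank 16097), and Filip1l, an inhibitor of cell migration (1 of 28, rank 12961). With at most 4 genes per list, these counts carry little weight against the 1.93% of all genes, and nearest genes are not shown to be the genes these regions regulate.

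Most of the nearest genes had an acetylated promoter in both NIH3T3 lists, though a smaller share than of the genes nearest to other distal control peaks and to no control-only region (n = 3533). Of the 176 genes nearest to a distal control-only region, 130 (73.9%) had a control H3K27ac peak at a promoter, and 118 (67.0%, 59.8 to 73.6%) had a peak in both lists, against 75.6% (74.2 to 77.0%) of the comparison genes. A promoter peak in control and none with purmorphamine was found for 12 genes (6.82%, 3.94 to 11.5%), against 2.32% (1.87 to 2.87%) of the comparison genes. The 12 were Ccl2, Ccl7, Ccl11, Cpb1, Dpt, Fam135b, Flrt3, Lvrn, Nxph3, Phex, Prl2c3 and Trcg1. Some of these promoters lie beside a control-only region and are not separate from it, and these shares come from the comparison that chose the regions. In limb buds, 95 of the 176 genes (54.0%, interval 46.6 to 61.2%) had a WT H3K27ac peak at a promoter, against 57.7% (56.0 to 59.3%) of the comparison genes. A peak of H3K27me3, the mark of Polycomb repression, overlapped promoters of 43 genes (24.4%, 18.7 to 31.3%) in Shh-/- limb buds, against 17.2% (16.0 to 18.5%) of the comparison genes. Peaks of that list had an FDR of up to 0.255 and a median width of 150 bp. Osr1, Tbx15, Nr2f2, Sall3, Bnc1, Met and Ereg were among the 43.

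Few of the control-only regions lay under a limb peak of an active mark. A region under no limb peak is not shown to lack the mark there. A WT limb H3K27ac peak overlapped 10 of 221 regions (4.52%, interval 2.48 to 8.13%), against 50.9% of all control peaks of these ranks, and a Shh-/- limb H3K27ac peak also overlapped 10, against 47.8%. H3K4me2, a mark of promoters and of primed and active enhancers, covered 2 regions in WT limb (0.905%) and 3 in Shh-/- limb (1.36%), against 52.1% and 51.3% of all control peaks. An H3K27me3 peak of Shh-/- limb overlapped 1 region (0.452%), against 2.53%. The limb lists were not used to choose the regions.

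Outside promoters, the limb peaks were still less frequent over control-only regions than over the other control peaks. Purmorphamine-only peaks, described below, also had low shares. A WT limb H3K27ac peak overlapped 10 of 210 distal regions (4.76%, 2.61 to 8.54%) and 2395 of 10050 other distal control peaks (23.8%, 23.0 to 24.7%), with 23.4% over both together. For Shh-/- limb H3K27ac, the shares were 4.29% (2.27 to 7.94%) and 22.1% (21.3 to 22.9%), with 21.7% over both. For H3K4me2 they were 0.476% and 13.8% in WT limb, with 13.5% over both, and 0.952% and 13.3% in Shh-/- limb, with 13.1% over both. H3K27me3 in Shh-/- limb was rare at both, with 0.476% (0.0841 to 2.65%) and 1.01% (0.837 to 1.23%), or 1.00% over both, and could not be told apart at these numbers.

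Rank and width moved with these shares. Limb peaks were less frequent over weaker control peaks. Among regions of rank 15001 to 20000, a WT limb H3K27ac peak overlapped 5 of 133 distal control-only regions (3.76%, 1.62 to 8.50%) and 16.1% (14.9 to 17.5%) of 3053 other distal peaks. From rank 10001 to 15000, the shares were 7.27% (2.86 to 17.3%) and 19.8% (18.3 to 21.3%), and from 5001 to 10000 they were 0 of 20 and 25.2%. In the best band, of rank at most 5000, the order was the other way, with 1 of 2 regions and 38.9%, but 2 regions cannot carry a comparison. Within bands of width, the share was lower in control-only regions in each band, with 2.00% against 21.5% at widths up to 600 bp, 10.8% against 19% above that and up to 900 bp, 1.79% against 21.2% up to 1300 bp and 2.56% against 24.0% up to 4050 bp. The intervals overlapped in the band above 600 and up to 900 bp, which had 7 of the 10 regions.

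**Figure D4:**
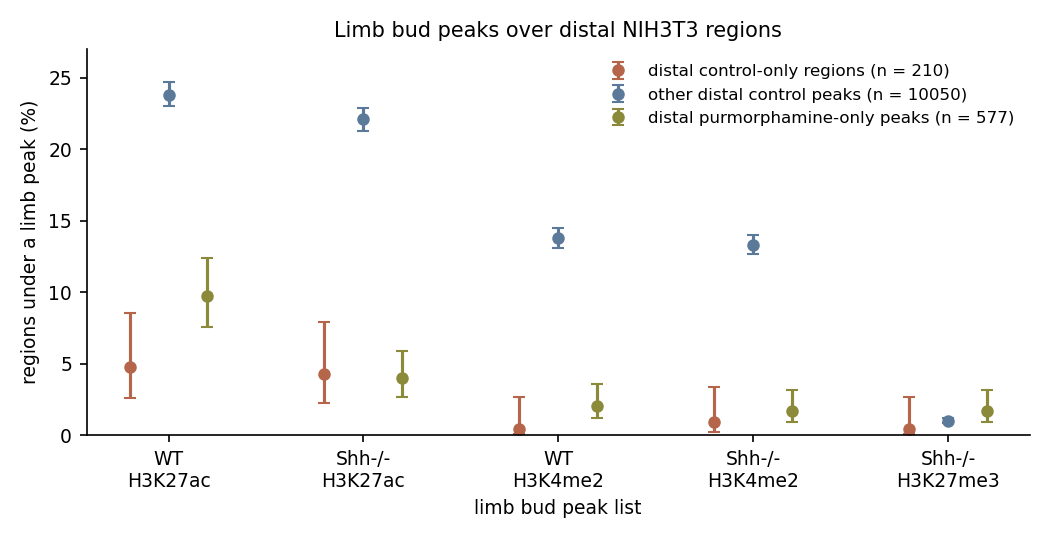
Share in percent of distal control-only regions, other distal control peaks of rank at most 20000 and distal purmorphamine-only peaks that overlap a peak of each limb list (points, 95% Wilson intervals for counting error). Control-only regions lie at 4.76% or less in every list, and the other control peaks at 23.8%, 22.1%, 13.8%, 13.3% and 1.01%. Distal purmorphamine-only peaks lie at 9.71%, 3.99%, 2.08%, 1.73% and 1.73%.

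Counting either genotype, 14 regions were acetylated in the limb: 6 in both WT and Shh-/- limb buds, 4 in WT only and 4 in Shh-/- only. The best-ranked of these was the Sorcs2 region whose sequence is given above, acetylated in both genotypes. Acetylated in both were also a region in Ankrd44, an ankyrin repeat protein (rank 14909), one in an intron of Vps13b nearest to Cox6c (16212), one nearest to Wac, an adaptor of histone H2B ubiquitination (17510), one in an intron of Nr6a1, an orphan nuclear receptor (18852), and one nearest to Ednra, the endothelin receptor (19562). In WT only were regions in Tbc1d1, a Rab GTPase-activating protein (12341), Ccl7 (14379), Fam217b (14944) and an intron of Bmt2 nearest to Tmem168 (16338). In Shh-/- only were regions nearest to Nxnl2, a thioredoxin-like protein of photoreceptors (10644), Lnx1 (14597), Ccl7 (16197) and Dnajc15, a mitochondrial cochaperone (18315). The pair at Ccl7 were neighbours in different classes, each touched by a narrow limb peak. Of the WT-only regions, those of Ccl7 and Fam217b had a Shh-/- limb H3K27ac peak at 200 and 150 bp, and that of Tbc1d1 at 54400 bp. Counting limb peaks within 1 kb, 10 of 23 regions (43.5%) had H3K27ac in both genotypes. WT limb H3K27ac peaks covered at least 50% of the length of only 4 of the 10 regions they touched.

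H3K4me2 peaks in both genotypes overlapped the region of rank 14168 near Bnc1 and the promoter region of Rgcc, neither of which lay under a limb H3K27ac peak. In Shh-/- limb an H3K4me2 peak also overlapped the Ednra region. The H3K27me3 peak that made the single overlap had an FDR of at least 0.05. Of the 20 best-ranked regions, 2 met a limb peak of any list, among them the Sorcs2 region.

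The reverse set was described in the same way. Of the 19989 purmorphamine peaks of rank at most 20000, 597 (2.99%) had no control peak within 1 kb. Limb H3K27ac overlapped 63 of them, 18 in both genotypes, 40 in WT only and 5 in Shh-/- only, whereas the control-only regions had 6, 4 and 4. Acetylation in WT only thus made up 63.5% (51.1 to 74.3%) of the limb-acetylated purmorphamine-only peaks, 28.6% (11.7 to 54.6%) of the limb-acetylated control-only regions and 11.4% of the other limb-acetylated control peaks. With 14 control-only regions in this count, the first and second of these intervals overlapped. Over distal peaks, a GLI match anywhere in the peak was found in 27 of 577 purmorphamine-only peaks (4.68%, 3.24 to 6.72%), in 2 of 210 control-only regions (0.952%, 0.262 to 3.41%) and in 1.61% (1.38 to 1.88%) of the other control peaks. Purmorphamine-only peaks were wider than control-only regions, at medians of 1200 and 850.0 bp, and a whole-peak share rises with width. The other distal control peaks were wider still, at a median of 1550 bp. In the central 400 bp, a GLI match was found in 1.39% (0.704 to 2.71%) of distal purmorphamine-only peaks. The shares there were 0.476% (0.0841 to 2.65%) in distal control-only regions and 0.358% (0.259 to 0.495%) in the other distal control peaks.

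Control-only regions were poor in G and C. Their median GC content was 43.8%, compared with 50.2% for the other control peaks and 46.2% for those outside promoters. An AP-1 match anywhere in the region was found in 85 of 221 (38.5%, 32.3 to 45%), against 40.3% of all control peaks of these ranks. Outside promoters, the shares were 38.6% (32.2 to 45.3%) in control-only regions and 54.7% (53.7 to 55.6%) in the other control peaks, which were wider. To take width out, motifs were compared in the central 400 bp of distal regions. An AP-1 match was found in 34 of 210 control-only regions (16.2%, 11.8 to 21.8%) and in 21.2% (20.4 to 22%) of the other distal peaks, with 21.1% over both, so the intervals overlapped. The stricter AP-1 form TGACTCA, a subset of the former, was found in 9.05% (5.87 to 13.7%) and 15.0% (14.3 to 15.7%). TEAD matches were found in 22.4% and 23.5%, RUNX matches in 28.1% and 27.7%, C/EBP matches (TTGCNNAA) in 14.8% and 16.9%, and E-box matches (CAGCTG) in 19.5% and 21.8%, and all of these intervals overlapped. SP/KLF matches (GGGCGG) were found in 1.90% and 9.20%, and this motif holds only G and C. ETS matches (CCGGAAG) were found in 1.90% and 2.18%, CRE matches (TGACGTCA) in 0.476% and 0.318%, NF1 matches in 0.476% and 1.42%, and nuclear receptor matches in 1.43% and 0.846%. A GLI match lay in the centre of 1 control-only region (0.476%) and of 0.358% of the others, with 0.361% over both.

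The homeodomain motif TAATTA was the only one of these that was more frequent in control-only regions with intervals that did not overlap, at 32 of 210 (15.2%, 11 to 20.7%) against 8.99% (8.44 to 9.56%), with 9.11% over both. The motif is built of A and T, and GC content moved with it. In windows with less than 40% GC it was found in 14 of 43 control-only regions (32.6%, 20.5 to 47.5%) and in 19.9% (18.0 to 22%) of the others. The shares were 12.7% and 12.7% at 40 to 45% GC, 11.4% and 7.03% at 45 to 50% and 4.00% and 3.15% above 50%. The intervals overlapped in all 4 GC bands, so the higher share of the motif was not separated from GC content at these numbers. For AP-1, the shares within the same GC bands were 18.6% and 21%, 20.6% and 21.3%, 15.2% and 21.9%, and 4.00% and 20.5%, with overlapping intervals in every band. For TEAD and RUNX over the same bands, the intervals were apart only for RUNX above 50% GC, with 12 matches in 25 control-only regions (48%) and 26.2% of the others.

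**Figure D5:**
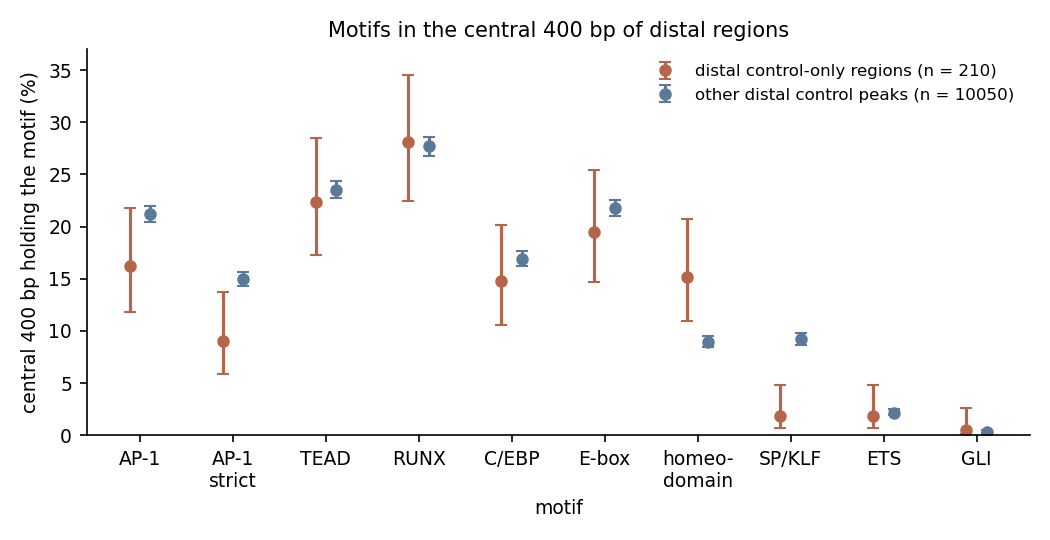
Share in percent of distal control-only regions (n = 210) and other distal control peaks (n = 10050) whose central 400 bp hold an exact match to each motif (points, 95% Wilson intervals for counting error). The homeodomain share is higher in control-only regions (15.2% against 8.99%), and the SP/KLF and strict AP-1 shares are lower.

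Control-only regions were found on all 20 chromosomes. Their share of the control peaks ran from 0.485% (0.223 to 1.06%) on chromosome 4 to 2.28% (1.47 to 3.54%) on chromosome 13, where 19 regions lay. Chromosome 13 holds the Slc35b3 locus and the proliferin genes. Promoters of 14 of 15 fibroblast markers, all but Fap, had a peak in both lists, as had 3 of 14 limb mesenchyme markers. Of 10 epithelial markers Krt8 had a peak in control, and Cdh1 and Trp63 in purmorphamine, and of 5 blood markers none had one in either. Endothelial and neural markers had 0 of 6 each in control and 1 of 6 each in purmorphamine, Pecam1 and Tubb3. In limb, 13 of 14 limb mesenchyme markers had a WT H3K27ac peak at a promoter and 11 a Shh-/- one, without Hoxd12 and Hoxd13. The part of antibody, cell number and the unknown depth of each library in the limb shares was not tested.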

How the data were processed

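ChIP-seq was done on NIH3T3 cells and forelimb buds, with 24 libraries in the labels. The authors aligned reads to mm10 with Bowtie2 2.2.5 (submitters' processing notes) and called peaks with CisGenome 2.1.0 on 2 pooled replicates against input. Each deposited list gives, per peak, a rank, the highest score of the enrichment statistic (at least 3.00), the highest log2 enrichment over input, the −log10 of the smallest Poisson p-value (capped at 100.0) and an FDR (q-value), all computed by the authors. Depth is not in the lists.

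From these lists, overlaps and gaps were computed in Python 3 with pandas, after the functions were tested on simulated intervals and against bedtools. Positions were read as deposited. Genes came from GENCODE M21 (basic set), and bases from the GRCm38.p6 genome, which has the same coordinates as mm10. A promoter ran from 2 kb before to 1 kb after a protein-coding start, and a distal peak touched none. Motifs were exact matches on both strands. Shares carry 95% Wilson intervals. Each list pools both replicates, so no test was run. The study itself compared reads of control and purmorphamine-treated NIH3T3 cells with limma, and that comparison was not used here. The rule for named genes took the 20 best-ranked regions, genes nearest to 3 or more regions, genes of the 14 lists, the 10 best-ranked regions under a limb peak and regions with a GLI match. 1 of these 20 regions is not reported here. Other genes named were chosen after their values were seen. The regions and lists were chosen with earlier results of these data known. The alternatives were other limits of rank and distance, autosomes alone, other promoter windows and annotations, other definitions of a limb overlap, and other motif and GC windows.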

Additional observations from a re-analysis of the deposited data

How the results depend on the processing

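All values come from single pooled lists, so no alternative could leave out a replicate. No paired analysis was possible because each list pools both replicates and no result comes from a test. Of 81 values under alternatives, 57 stayed within the counting interval of the main value (for the number of regions, within 1.5 times) and 24 moved. Whether a comparison with the other control peaks changed direction was not scored. The number of regions was 22 at a rank limit of 10000, 1144 at 30000, 403 when only overlap counted and 974 when only the better-ranked 50% of the purmorphamine list counted as peaks, since fewer peaks then remain to be near. At the rank limit of 10000, with 22 regions, 0% lay at promoters, the median distance to a start was 58504 bp, 0% lay under WT limb H3K4me2, 4.55% (1 region) under H3K27me3, 100.0% of the 1 limb-acetylated region was acetylated in both genotypes, 59.1% held an AP-1 match anywhere in the region (38.5% in the 221) and the median GC was 42.2%. At 30000, AP-1 matches were found in 26.7% and the median GC was 45.1%. With the better-ranked 50% of the purmorphamine list, 46.1% held an AP-1 match. The share at promoters was 2.71% with a window of 500 bp on either side, and the median distance was 16760 bp to the starts of all annotated genes. The WT limb H3K27ac share was 8.60% for limb peaks within 1 kb and 1.81% where at least 50% of the region had to be covered. The H3K27me3 share, which rests on 1 region, was 0% without a purmorphamine peak within 5 kb, with 50% cover or with an FDR under 0.05. AP-1 matches were found in 15.8% of the 221 regions when only the central 400 bp was searched and in 23.5% for TGACTCA over the whole region, and the median GC of the central windows was 44.8%. Taking only the best-ranked region of each of the 182 loci, an alternative chosen after seeing the data, moved no value beyond its interval. The depth of each library is unknown. From these lists alone, a region under the calling limit in the purmorphamine cells cannot be told apart from one without acetylation. The study's own comparison of reads was not used here.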

Other observations

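On the Y chromosome and unplaced scaffolds, 11 control peaks had a rank of at most 20000, and each had a purmorphamine peak within 1 kb. Some loci with pairs of control-only regions had no purmorphamine peak within 50 kb. These were the locus of Gria1 with 7 control peaks, Oxr1, an oxidation resistance gene, with 3, Cpb1, which encodes carboxypeptidase B, with 8, and Prl2c3, a proliferin gene, with 8. At Vmn1r42 and Vmn1r45 on chromosome 6, 39 control peaks covered 28200 bp and 14 purmorphamine peaks covered 5150 bp. The proliferin and vomeronasal receptor genes belong to families of near-identical copies, and the part of read placement in these values was not tested.

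The limb bud lists held further peaks around some of these loci. Around the chemokine locus with 50 kb on either side there were 9 WT and 6 Shh-/- limb H3K27ac peaks, most of them more than 50 kb upstream of the Ccl2 start. Around the 2 regions near Ednra, the endothelin receptor gene, there were 16 WT and 14 Shh-/- limb H3K27ac peaks, 28 control peaks and 9 purmorphamine peaks. Around the Slc35b3 locus there was 1 WT limb H3K27ac peak, and around those of Gria1 and Cpb1 none in either genotype.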
